A study of Mus musculus with 9 samples.

Results

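A set of 10 genes of platelet adhesion, Vwf, Pf4, Gp5, Itga2b, Gp1ba, Gp1bb, Gp9, Gp6, Itgb3 and Selp, were followed across 9 RNA-sequencing libraries. They were taken by gene symbol, and all 10 of 10 were found among the 38215 genes of the deposited table. The libraries came from bone marrow of C57BL/6J mice, from sorted LSK cells (without lineage markers, with Sca1 and Kit), the fraction that holds haematopoietic stem cells and multipotent progenitors, and gated on GFP together with mCherry at the terminal time point. All mice carried Jak2V617F, an activating mutation of the kinase Jak2 found in myeloproliferative neoplasms, and all received tamoxifen. In 5 libraries (EV, an abbreviation that the labels do not spell out; mice 1 to 5) Jak2V617F was the whole genotype, and in 4 (mice 1, 2, 3 and 5) it was combined with sgZrsr2, which the series describes as loss of Zrsr2, a factor of the minor spliceosome. The ages of the mice, the promoter behind Jak2V617F or sgZrsr2, and a statement that each number is a separate animal are not given in the sources used here, so p-values measure the spread between these samples. The questions were how these genes varied from library to library and whether they differed with sgZrsr2.

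Platelets are shed by megakaryocytes, and the products of these genes let them stick to a damaged vessel wall. Von Willebrand factor, encoded by Vwf, is a large plasma protein that bridges exposed collagen and the platelet. Its platelet receptor is the glycoprotein Ib-IX-V complex, built from the products of Gp1ba, Gp1bb, Gp9 and Gp5. Itga2b and Itgb3 encode the integrin that binds fibrinogen, Gp6 the collagen receptor, Pf4 a chemokine of the platelet granules, and Selp P-selectin, an adhesion molecule that reaches the surface after activation. Some haematopoietic stem cells that lean towards platelet production also express Vwf and Itga2b, and endothelial cells express Vwf and Selp.

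The libraries held 23238264 to 45585531 expected counts, mitochondrial genes took 2.27% to 4.07% of them, and 14944 genes were expressed highly enough to be tested. Genes of the sort markers were present in every library, with Kit at 247 to 632 CPM (counts scaled to library size with TMM factors). Ly6a, which encodes Sca1, was at 14.8 to 49.3 CPM, highest in EV mouse 4. Kit was at 523 CPM in EV mouse 5, 632 CPM in sgZrsr2 mouse 3 and 522 CPM in sgZrsr2 mouse 5. Elsewhere Kit was at 442 CPM or less. Ptprc, which is not part of the gate as described, was at 197 to 272 CPM. Zrsr2 was at 50.6 to 62.2 CPM in the EV libraries and at 31.7 to 44.4 CPM in the sgZrsr2 libraries, so the groups did not overlap. The libraries of sgZrsr2 mice 1 and 2 were the most alike of all 36 pairs, with a median difference of 2.82% as a coefficient of variation. They differed by more than counting error (chi-square per degree of freedom 9.16, against 16.4 to 161 for the other 15 pairs within a group), a comparison that does not cover variation from library preparation. They were kept as separate samples, as labelled.

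Of the 10 genes, 9 passed the expression filter and 1, Gp6, did not. The main pattern was shared by libraries of both genotypes. Vwf, Pf4, Gp5, Gp1bb, Gp1ba, Gp9 and Itgb3 each had their 3 highest values in the same libraries, EV mouse 5, sgZrsr2 mouse 3 and sgZrsr2 mouse 5. This held for 7 of the 9 tested genes, where 7.81% of all tested genes (1167 of 14944) had these 3 libraries on top. In Vwf, Pf4, Gp5 and Gp1bb the lowest of the 3 was at least 2 times the highest of the other 6, which was the case in 0.301% of all tested genes. Below, the shared order means these 3 libraries on top in any rank, and the other 6 libraries were ranked differently from gene to gene. Itga2b and Selp had other libraries on top. The same 3 libraries had the lowest mitochondrial shares (2.41%, 2.35% and 2.27%, against 2.88% to 4.07%) and the highest TMM factors (1.04 to 1.07, against 0.894 to 1.02), and the part of this in the result was not tested. Since whole sorted populations were sequenced, more cells of a type and more RNA per cell cannot be told apart in any of these values.

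Promoter sequences from RefSeq (GRCm38.p6, 250 bases before to 50 after the annotated start) were matched for 8 of the 10 genes. Those of the 4 genes that held both a GATA and an ETS motif are shown because GATA and ETS factors drive megakaryocyte genes. All 4 had the shared order of libraries. Selp is shown as a gene with other libraries on top. They lie at chr5:90772185-90772484 (Pf4, plus strand), chr16:30310732-30311031 (Gp5, minus strand), chr16:18622354-18622653 (Gp1bb, minus strand), chr11:70638872-70639171 (Gp1ba, plus strand) and chr1:164115014-164115313 (Selp, plus strand). Each is written 5′ to 3′ on the strand of its gene, and capitals mark the motifs searched on both strands: for GATA, the letters AGATAA or else TGATAA, and likewise AGATAG or else TGATAG; for ETS, the letters AGGAAG or else CGGAAG. No GATA match overlapped an ETS match.
Pf4: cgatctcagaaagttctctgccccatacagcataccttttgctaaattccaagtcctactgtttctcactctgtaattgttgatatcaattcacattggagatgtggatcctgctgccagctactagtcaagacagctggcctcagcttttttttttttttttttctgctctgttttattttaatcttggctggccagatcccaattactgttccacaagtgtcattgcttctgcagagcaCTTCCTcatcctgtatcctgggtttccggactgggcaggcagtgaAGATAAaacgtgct
Gp5: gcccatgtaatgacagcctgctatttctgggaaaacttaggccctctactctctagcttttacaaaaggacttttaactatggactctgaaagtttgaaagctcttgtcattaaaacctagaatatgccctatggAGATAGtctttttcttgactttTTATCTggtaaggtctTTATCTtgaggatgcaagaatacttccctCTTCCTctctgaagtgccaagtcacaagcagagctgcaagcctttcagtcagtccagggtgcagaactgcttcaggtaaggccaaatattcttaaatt
Gp1bb: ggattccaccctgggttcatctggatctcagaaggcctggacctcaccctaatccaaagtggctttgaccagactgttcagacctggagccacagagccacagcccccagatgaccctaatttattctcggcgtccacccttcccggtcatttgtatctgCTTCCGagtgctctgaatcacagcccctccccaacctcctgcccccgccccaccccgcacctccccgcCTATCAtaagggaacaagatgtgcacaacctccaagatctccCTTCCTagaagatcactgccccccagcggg
Gp1ba: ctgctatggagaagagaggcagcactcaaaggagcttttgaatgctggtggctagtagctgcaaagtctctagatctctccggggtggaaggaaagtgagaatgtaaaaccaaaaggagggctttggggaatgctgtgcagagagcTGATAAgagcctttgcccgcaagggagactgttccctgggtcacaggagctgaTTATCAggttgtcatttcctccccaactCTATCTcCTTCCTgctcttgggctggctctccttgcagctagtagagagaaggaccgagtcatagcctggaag
Selp: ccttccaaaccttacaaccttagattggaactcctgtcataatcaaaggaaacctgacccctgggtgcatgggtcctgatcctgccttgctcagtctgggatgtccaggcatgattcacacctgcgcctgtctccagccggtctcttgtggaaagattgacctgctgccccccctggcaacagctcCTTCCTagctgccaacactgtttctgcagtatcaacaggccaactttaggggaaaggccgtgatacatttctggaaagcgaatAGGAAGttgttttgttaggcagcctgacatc
Pf4 held 1 match of each motif, Gp5 held 3 GATA matches and 1 ETS match, Gp1bb held 1 and 2, Gp1ba held 3 and 1, and Selp held 0 and 2. In Pf4 the ETS match began 9 bases before the start, in Gp1ba it began 16 bases before it, and the nearest GATA match of Gp1bb began 22 bases before it. Among all 32851 RefSeq promoters of this length, 29.8% held a GATA match, 46.5% an ETS match and 12.6% both. Of the other matched genes, Gp9 and Itga2b held ETS matches without a GATA match (1 and 2) and Gp6 held 1 GATA match. Gp9 had the shared order of libraries without a GATA match, and Itga2b did not have it. Vwf and Itgb3 had the shared order but no promoter entry. Whether the motifs go with the library pattern was not tested. Such matches are short strings of letters and are given as a description.

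Vwf (ENSMUSG00000001930; chromosome 6, 125546774 to 125686679, plus strand, GRCm38) measured 9.21, 6.81, 4.65, 7.68 and 53.2 CPM across EV mice 1 to 5. Its sgZrsr2 values were 11.4, 6.16, 91.1 and 85.3 CPM for mice 1, 2, 3 and 5. EV mouse 5 was therefore far above the other EV libraries, and sgZrsr2 mice 1 and 2 lay among or just above the low EV values, so the groups overlapped. The values rested on 149 to 3747 counts and spanned 19.6-fold over the 9 libraries, where the median gene at or above 5 CPM spanned 1.73-fold. The EV mean was 16.3 ± 20.7 CPM (SD, n = 5) and the sgZrsr2 mean 48.5 ± 46.0 CPM (SD, n = 4), a log2 fold change of 1.58 (SE 0.90). It did not pass in edgeR's quasi-likelihood test (Benjamini-Hochberg adjusted p = 0.718 over all tested genes; two-sided exact permutation p = 0.159).

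Pf4 (ENSMUSG00000029373; chromosome 5, 90772435 to 90773381, plus strand), the granule chemokine, had the widest range of the tested genes of this set, 38.2-fold. EV mice 1 to 5 had 3.43, 1.81, 1.90, 1.78 and 22.0 CPM, and sgZrsr2 mice 1, 2, 3 and 5 had 0.979, 1.64, 27.9 and 37.4 CPM. The 2 lowest of all 9 libraries were sgZrsr2 mice 1 and 2, and the 2 highest were also sgZrsr2 libraries. The log2 fold change was 1.46 with an SE of 1.09 (edgeR adjusted p = 0.747; exact permutation p = 0.333). The ratio of Vwf to Pf4 within a library ran from 2.28 to 4.33 in 8 of the 9 libraries. In sgZrsr2 mouse 1, where Pf4 rested on 22 counts, it was 11.7.

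**Figure D1:**
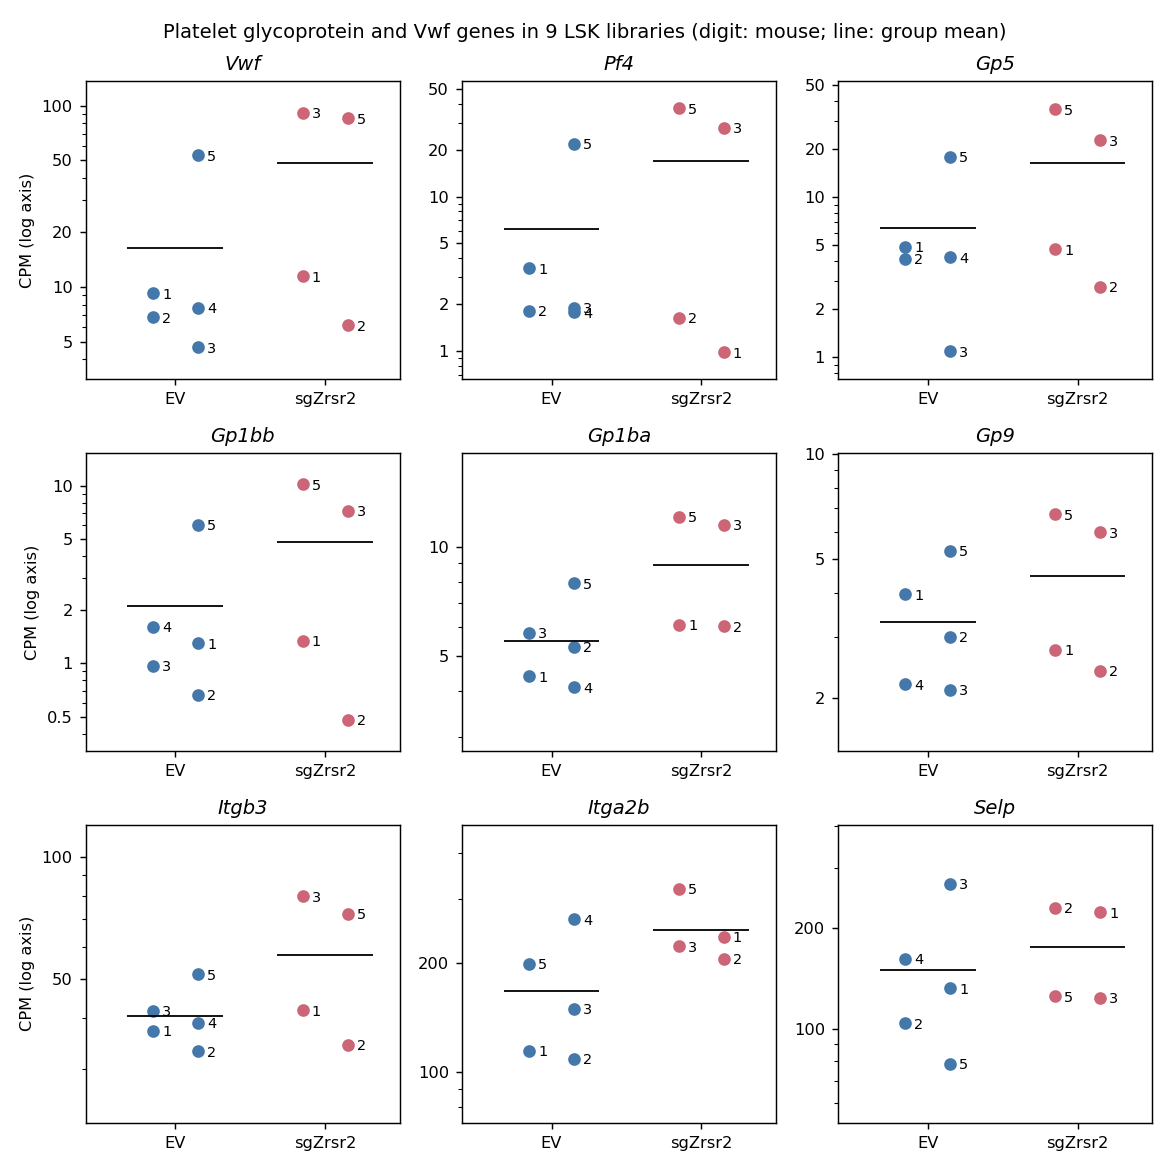
Levels of the 9 tested genes in each library, in CPM on log axes that differ between panels; points are libraries (digits give the mouse), blue is EV, red is sgZrsr2 and black lines are group means. In Vwf, Pf4, Gp5 and Gp1bb, EV mouse 5 sits with sgZrsr2 mice 3 and 5, and sgZrsr2 mice 1 and 2 sit with the other EV libraries.

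The 4 subunits of the von Willebrand factor receptor had the same libraries on top, but the size of the contrast varied between them. Gp5 (ENSMUSG00000047953; chromosome 16, 30307686 to 30310779, minus strand), the glycoprotein V subunit, measured 4.90, 4.11, 1.09, 4.22 and 17.9 CPM across EV mice 1 to 5, then 4.72, 2.76, 22.7 and 35.5 CPM across sgZrsr2 mice 1, 2, 3 and 5. Gp1bb (ENSMUSG00000050761; chromosome 16, 18620319 to 18622403, minus strand), the beta chain of glycoprotein Ib, was low, at 1.30, 0.663, 0.966, 1.60 and 6.02 CPM with EV and at 1.34, 0.480, 7.20 and 10.2 CPM with sgZrsr2 in the same mouse orders. In both genes the low libraries of the 2 genotypes were intermixed. Gp1bb overlaps the same-strand gene Sept5, which had 2.53 to 87.0 counts, and its counts were whole numbers in 2 of 9 libraries, so some of its reads were divided with another gene and its level is uncertain.

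Gp1ba (ENSMUSG00000050675; chromosome 11, 70639122 to 70642036, plus strand), the chain that contacts von Willebrand factor, measured 4.41, 5.30, 5.80, 4.11 and 7.94 CPM across EV mice 1 to 5. In sgZrsr2 mice 1, 2, 3 and 5 it reached 6.10, 6.04, 11.5 and 12.1 CPM, above the 4 lower EV libraries in every case. Gp9 (ENSMUSG00000030054; chromosome 6, 87778136 to 87779762, plus strand), the glycoprotein IX subunit, was at 3.97, 3.01, 2.12, 2.20 and 5.29 CPM with EV and at 2.76, 2.40, 5.98 and 6.73 CPM with sgZrsr2. These 2 genes spanned 2.95-fold and 3.18-fold over the libraries, where Gp5 and Gp1bb spanned 32.5-fold and 21.2-fold. The ratio of Gp5 to Gp9 moved with that contrast, at 3.39 in EV mouse 5, 3.79 in sgZrsr2 mouse 3 and 5.27 in sgZrsr2 mouse 5, against 0.515 to 1.92 in the other 6 libraries. The ratio of Gp1ba to Gp9 ran from 1.11 to 2.74, both of these in other libraries than those 3.

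Of the 4 subunits, Gp1ba had the smallest unadjusted p of the set (0.0351), with means of 5.51 ± 1.52 CPM for EV (SD, n = 5) and 8.94 ± 3.32 CPM for sgZrsr2 (SD, n = 4) and a log2 fold change of 0.70 (SE 0.29). It failed the adjusted threshold (edgeR adjusted p = 0.714; exact permutation p = 0.0952). The log2 fold changes of Gp5, Gp1bb and Gp9 were 1.35 (SE 0.82), 1.20 (SE 0.85) and 0.43 (SE 0.40). Their edgeR adjusted p values were 0.728, 0.744 and 0.787.

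The 2 chains of the fibrinogen-binding integrin behaved differently from each other. Itgb3 (ENSMUSG00000020689; chromosome 11, 104608000 to 104670476, plus strand), the beta chain, measured 37.3, 33.1, 41.7, 38.9 and 51.3 CPM across EV mice 1 to 5, then 41.8, 34.3, 79.9 and 72.2 CPM across sgZrsr2 mice 1, 2, 3 and 5. It kept the shared order with a smaller range of 2.41-fold. Itga2b (ENSMUSG00000034664; chromosome 11, 102453297 to 102470122, minus strand), the alpha chain and the CD41 antigen, was at 115, 109, 149, 263 and 199 CPM with EV and at 235, 205, 222 and 319 CPM with sgZrsr2. Of the 9 libraries EV mouse 4 was below sgZrsr2 mouse 5 alone, and all 4 sgZrsr2 libraries exceeded 4 of the 5 EV libraries. The ratio of Itga2b to Itgb3 ran from 2.78 in sgZrsr2 mouse 3 to 6.76 in EV mouse 4.

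The log2 fold change of Itga2b was 0.56 (SE 0.26) between means of 166.8 ± 64.6 CPM for EV (SD, n = 5) and 245.2 ± 51.0 CPM for sgZrsr2 (SD, n = 4). That of Itgb3 was 0.50 (SE 0.24). The edgeR adjusted p was 0.714 for each, limma-voom gave Itga2b 0.87 (adjusted p = 0.156), and the exact permutation p values were 0.111 and 0.206.

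Selp (ENSMUSG00000026580; chromosome 1, 164115264 to 164150026, plus strand), P-selectin, had an order of libraries far from that of Vwf. EV mice 1 to 5 had 132, 104, 270, 162 and 78.7 CPM, and sgZrsr2 mice 1, 2, 3 and 5 had 222, 229, 124 and 125 CPM. EV mouse 5, high for Vwf, had the lowest Selp value of all libraries, and EV mouse 3, lowest for Vwf, had the highest. The ratio of Selp to Vwf was 1.36 to 1.48 where Vwf was high (EV mouse 5, sgZrsr2 mice 3 and 5), against 14.3 to 58.1 for the remaining 6 libraries. The log2 fold change was 0.23 (SE 0.34; edgeR adjusted p = 0.870). It was 0.55 (SE 0.27; edgeR adjusted p = 0.70) without EV mouse 3 and 0.06 to 0.36 without any other single library, and limma-voom with quality weights gave 0.77 (SE 0.24; adjusted p = 0.183). Selp counts were whole numbers in 1 of 9 libraries, and the opposite-strand genes Gm16548 and Gm16587 overlap it with 19.3 to 155 counts, so reads of these partners may be mixed.

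Gp6 (ENSMUSG00000078810; chromosome 7, 4368713 to 4397744, minus strand), the collagen receptor of platelets, had 1 count in EV mouse 5, 1 count in sgZrsr2 mouse 5 and 0 counts in the other 7 libraries. A count of 0 allows up to 3 counts, or 0.0663 to 0.134 CPM at these depths. No group comparison was made for it.

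**Figure D2:**
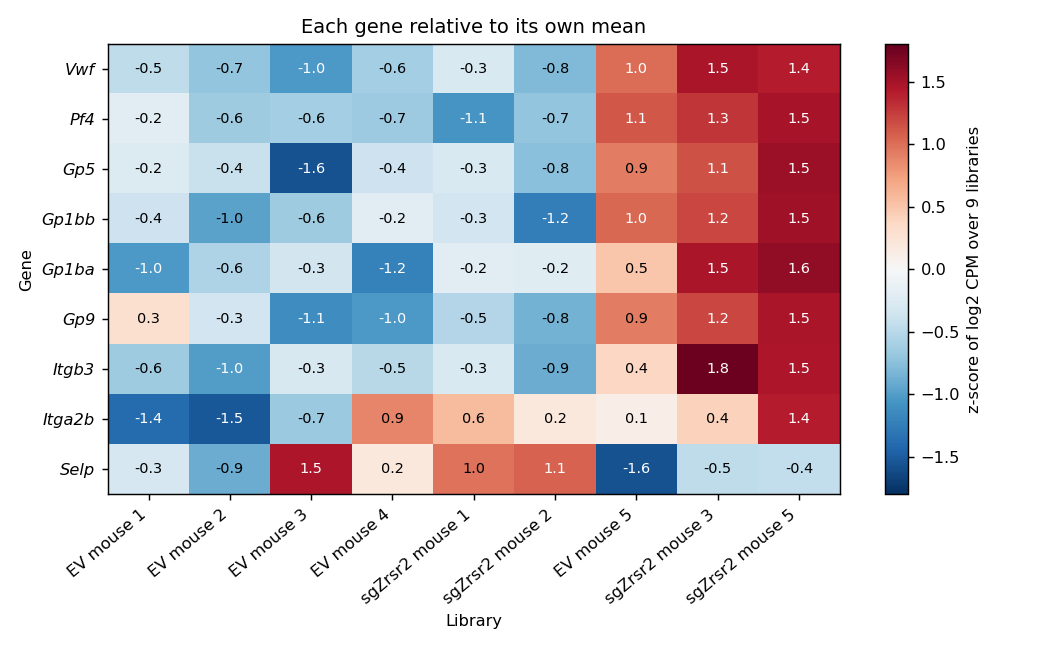
z-scores of log2 CPM for the 9 tested genes (rows) in the 9 libraries (columns), each gene centred and scaled over its own values, with red above and blue below its mean. Vwf, Pf4, Gp5, Gp1bb, Gp1ba, Gp9 and Itgb3 are red in the 3 right-hand columns, where Selp is blue.

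Levels can be compared between genes only per length, so CPM were divided by the length of the merged exons in GENCODE M21. By the median over the 9 libraries, Itga2b stood highest at 37.5 CPM per kilobase (19.9 to 58.6), then Selp at 29.9 (17.8 to 61.1) and Itgb3 at 7.06 (5.61 to 13.5). Gp9 followed at 3.41, Pf4 at 2.64, Gp1ba at 2.22, Gp5 at 2.15, Gp1bb at 0.640 and Vwf at 0.574 CPM per kilobase, with Gp6 at 0. The ranges of Selp and Itgb3 did not overlap, while all other neighbours from Itga2b to Vwf did. The order depended on the library: Pf4 reached 51.8 CPM per kilobase at its highest and 1.36 at its lowest.

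Between the genotypes, all 9 tested genes had a log2 fold change above 0, with a median of 0.70. Over all tested genes 48.5% were above 0 and the median was -0.01. None of the 9 passed the adjusted threshold of 0.05 in edgeR, where 0 of 14944 genes passed (0%), nor with the DESeq2 Wald test, which called 16 other genes, nor with limma-voom, which called 0. At an unadjusted edgeR p under 0.05 there was 1 of the 9, Gp1ba, higher with sgZrsr2, and 0 lower. Of all tested genes 6.85% had such a p (3.87% higher and 2.98% lower). A log2 fold change of at least 1 was fitted for 4 (Vwf, Pf4, Gp5 and Gp1bb), against 1.26% of all tested genes. In 0 of the 9 genes were the groups free of overlap, where 1.75% of all tested genes lay wholly higher with sgZrsr2 and 1.32% wholly lower. The summed CPM of the 10 genes, mostly Itga2b, Selp and Itgb3, was 267 to 485 with EV and 488 to 704 with sgZrsr2.

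The size of these differences rested on which libraries were included. Without EV mouse 5 the log2 fold change of Vwf was 2.78 and that of Pf4 2.94, and 7 of the 9 genes had an unadjusted p under 0.05, where 8.73% of all genes tested in that fit had one. The smallest edgeR adjusted p among the 9 was 0.507. Without sgZrsr2 mouse 5 the values of Pf4, Gp5 and Gp1bb were 0.73, 0.65 and 0.53, and without sgZrsr2 mouse 3 that of Vwf was 1.08. Without EV mouse 5 and sgZrsr2 mice 3 and 5 together, a fit added after the data were seen, 6 genes were above 0 and 3 below, with a median of 0.07. In that fit Vwf was at 0.32 (SE 0.35), Itga2b at 0.47 (SE 0.34), Selp at 0.44 (SE 0.34) and Pf4 at -0.75 (SE 0.47), with edgeR adjusted p values of 0.598 to 0.784 for these 4.

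**Figure D3:**
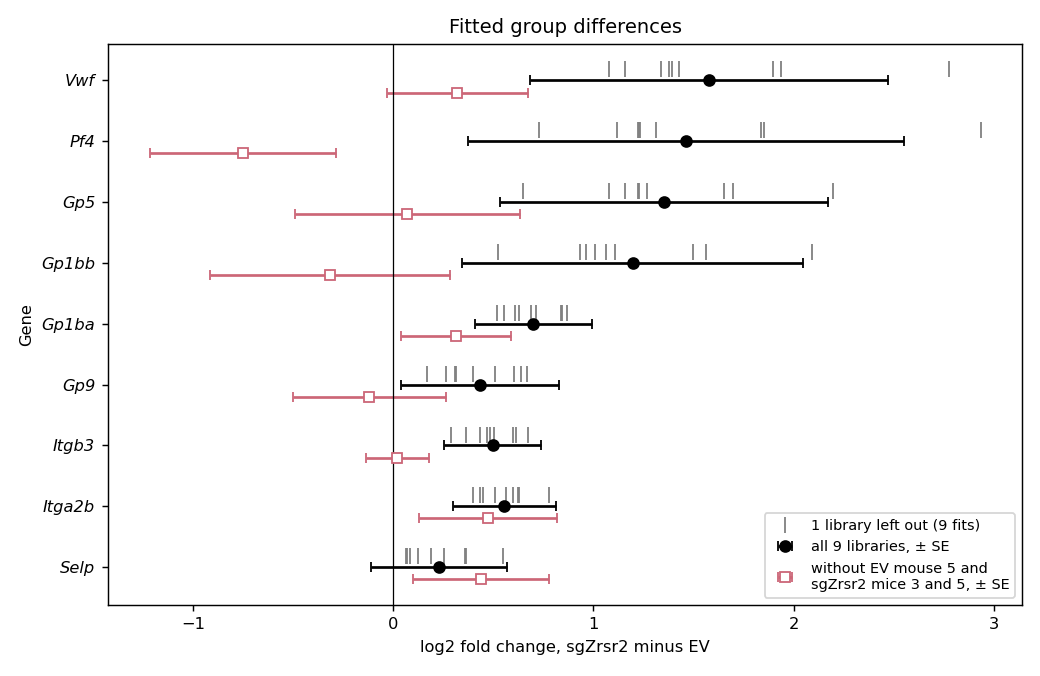
Fitted log2 fold change (sgZrsr2 minus EV) of the 9 tested genes: black circles use all 9 libraries with bars of 1 SE, grey ticks each leave out 1 library, and open red squares leave out EV mouse 5 and sgZrsr2 mice 3 and 5. All circles lie above 0, while the squares of Pf4, Gp1bb and Gp9 lie below it.

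Other genes of the megakaryocyte programme were counted from lists written from general knowledge. Among 12 transcription factors 10 were higher and 2 lower with sgZrsr2 (median log2 fold change 0.32), 0 passed the adjusted threshold, and 5 had the same 3 highest libraries as Vwf: Gata1, Gata2, Tal1, Zfpm1 and Mafg. Gata1, a regulator of megakaryocyte and erythroid genes, was at 24.1 CPM for EV mouse 5, 26.2 CPM for sgZrsr2 mouse 3 and 38.8 CPM for sgZrsr2 mouse 5, against 2.31 to 9.57 CPM elsewhere. Gata2, with the highest summed CPM of the list (not corrected for length), was at 176 to 301 CPM with EV and 279 to 376 CPM with sgZrsr2 (log2 fold change 0.46, SE 0.16; edgeR adjusted p = 0.714). Fli1, an ETS factor of megakaryocytes, did not overlap between the groups, at 65.4 to 88.5 CPM with EV and 91.8 to 102 CPM with sgZrsr2, and its edgeR adjusted p was 0.714. Nfe2 and Meis1 did not overlap either, so 3 of the 12 lay wholly higher with sgZrsr2, against the 1.75% of all tested genes.

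Of 16 granule, cytoskeleton and release genes 14 were tested, 10 higher and 4 lower with sgZrsr2 (median 0.37), with 0 past the adjusted threshold and 5 in the shared order. Srgn (389 to 694 CPM), a proteoglycan that packs granule proteins, and F13a1 (144 to 442 CPM), a coagulation factor subunit also made by monocytes, were not among the 5. Those 5 were Mmrn1, Treml1, Rab27b, Cavin2 and Tbxas1. Mmrn1, which encodes multimerin of the platelet granules, was at 32.1, 51.8 and 24.1 CPM in EV mouse 5 and sgZrsr2 mice 3 and 5, against 3.84 to 12.2 CPM elsewhere. Treml1, a platelet granule receptor, was at 3.40, 4.31 and 7.15 CPM in these libraries, against 0.125 to 0.864 CPM elsewhere. Ppbp, a platelet chemokine, was at most 1.73 CPM and Tubb1, the platelet tubulin, at most 0.835 CPM. Ppbp was at 0.0330, 0.0305 and 0.0462 of Pf4 in the 3 libraries and at 0 to 0.955 of it in the other 6, where both were low. Of 16 receptors and signalling genes 15 were tested, 10 higher and 5 lower (median 0.07), with 0 past the threshold and 6 in the shared order. Syk, a kinase downstream of Gp6, was at 239 to 278 CPM with EV and 332 to 347 CPM with sgZrsr2, without overlap (log2 fold change 0.36, edgeR adjusted p = 0.714). The 12 other adhesion receptors had 8 higher and 4 lower (median 0.12), with 0 past the threshold and 3 in the shared order. Of 14 stem cell genes 10 were higher and 4 lower (median 0.14), with 0 past the threshold and 4 in the shared order. Of 6 surface marker genes listed for LSK cells 3 were higher and 3 lower (median -0.06). None passed the threshold, and 1, Kit, had the shared order.

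Markers of other cells moved with the shared order to different degrees. Of 10 tested erythroid genes 8 had the same 3 highest libraries; Car1, an early erythroid gene, was at 25.4, 39.3 and 35.5 CPM in EV mouse 5 and sgZrsr2 mice 3 and 5 and at 0.422 CPM or less elsewhere. Of those 10, 9 were higher with sgZrsr2 and 1 lower, with a median log2 fold change of 1.35 and 0 past the adjusted threshold. Tfrc and the globin gene Hbb-bt did not have the shared order. Hbb-bt was at 8.06, 15.4 and 5.59 CPM in EV mouse 5 and sgZrsr2 mice 3 and 5. It was at 13.5 to 20.4 CPM in EV mice 1 to 4 and highest in sgZrsr2 mice 1 and 2 (46.2 and 42.3 CPM). The 16 erythroid genes summed to 432 to 628 CPM with EV and 433 to 812 CPM with sgZrsr2. Much of that sum was Tfrc, the transferrin receptor and the 1 lower gene, at 217 to 486 CPM with EV and 180 to 270 CPM with sgZrsr2. The 10 mature neutrophil genes summed to 17.0 to 189 CPM with EV and 25.1 to 222 CPM with sgZrsr2. Their sum was highest in sgZrsr2 mouse 3 (222 CPM) and EV mouse 5 (189 CPM), but in sgZrsr2 mouse 5 it was 32.1 CPM, within the 17.0 to 78.6 CPM of the other 6 libraries. In that library Pf4 and Gp5 had their highest values. The 10 mast cell and basophil genes summed to 56.2 to 141 CPM with EV and 71.1 to 214 CPM with sgZrsr2. Their sum was highest in sgZrsr2 mouse 5 and next highest in EV mouse 5. Of the 8 tested, 1 had the shared order, Prss34. It was at 50.8, 31.6 and 58.0 CPM in EV mouse 5 and sgZrsr2 mice 3 and 5, against 0 to 26.8 CPM elsewhere. The part of these cells in the result was not tested.

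Genes of endothelial cells, the other main source of Vwf and Selp, were followed as a list of 12, of which 10 were tested. Their sum was 103 to 128 CPM with EV and 81.0 to 133 CPM with sgZrsr2, mostly from Egfl7 and Robo4, and its 3 lowest values were those of EV mouse 5, sgZrsr2 mouse 3 and sgZrsr2 mouse 5. The defining genes Cdh5 and Kdr were at most 4.05 and 3.14 CPM, and of the 12 genes 3 (Kdr, Plvap and Stab2) had the same 3 highest libraries as Vwf. The T cell genes Cd3d, Cd3e and Cd3g were at or near 0, at most 0.0873 CPM. The 8 T cell genes summed to 11.9 to 26.8 CPM with EV and 18.0 to 27.4 CPM with sgZrsr2, highest in sgZrsr2 mouse 3, EV mouse 5 and sgZrsr2 mouse 5. Most of that sum was Lat (11.1 to 23.7 CPM), the 1 of 4 tested T cell genes with the shared order. The 9 B cell genes summed to 20.3 to 68.4 CPM with EV and 17.2 to 37.2 CPM with sgZrsr2, and the 10 monocyte and macrophage genes to 312 to 580 and 305 to 458 CPM. None of the 8 tested B cell genes and 1 of the 10 tested monocyte and macrophage genes, Adgre1, had the shared order. C1qa, C1qb, C1qc and Vcam1 were highest in EV mouse 5 (3.43, 3.26, 3.58 and 8.52 CPM) and next highest in sgZrsr2 mouse 3 (1.46, 1.53, 1.75 and 4.57 CPM). Csf1r was highest in sgZrsr2 mouse 5 (137 CPM), then in EV mouse 2 (136 CPM). Ly6c2 and Ccr2 were highest in EV mouse 3 and Cd68 in EV mouse 4. Mrc1 was highest in EV mouse 5, then in EV mouse 1. Its groups did not overlap, at 1.30 to 2.62 CPM with EV and 0 to 1.19 CPM with sgZrsr2 (edgeR adjusted p = 0.714). It was the 1 of these 10 genes wholly lower with sgZrsr2, against 1.32% of all tested genes. The part of any of these cells in the result was not tested.

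**Figure D4:**
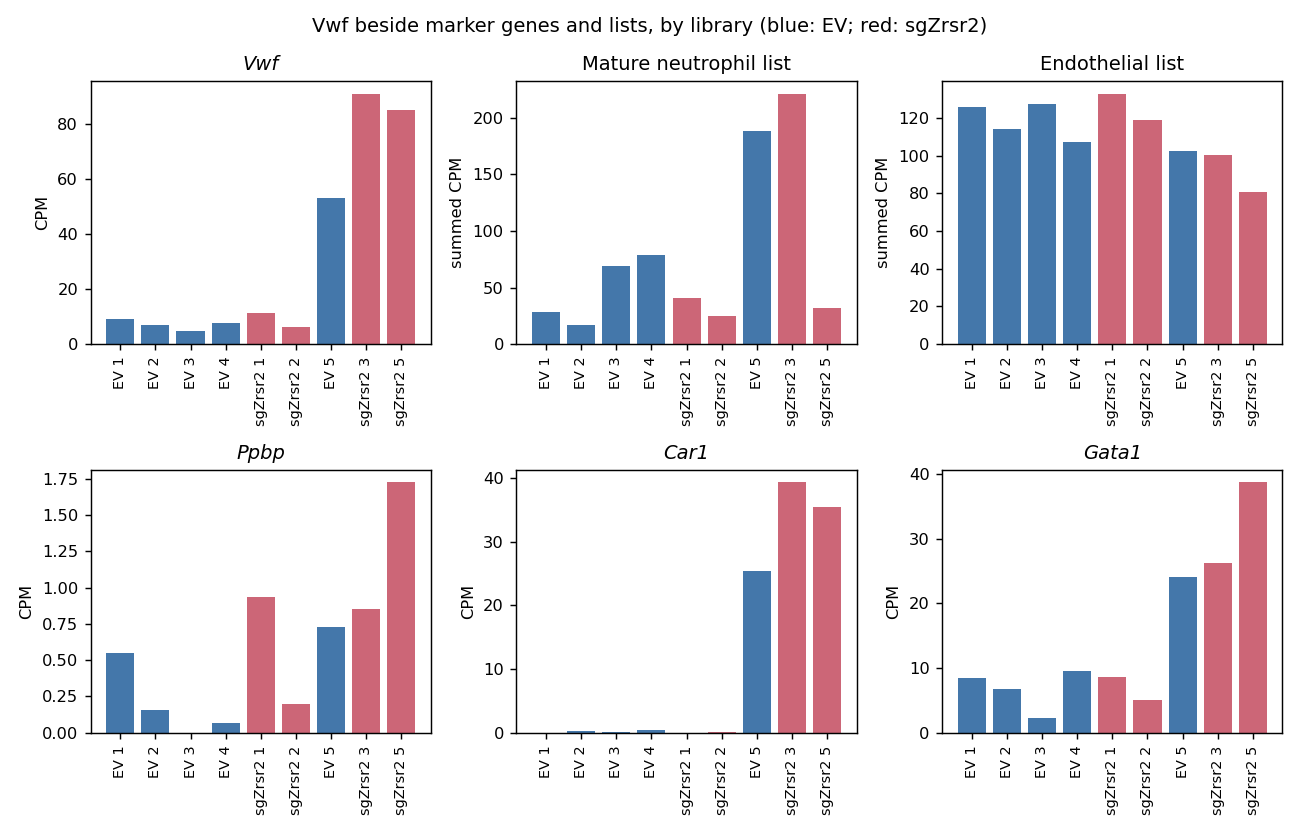
Levels by library, in CPM, of Vwf, Ppbp, Car1 and Gata1, and the summed CPM of the mature neutrophil and endothelial lists; bars are single libraries (blue EV, red sgZrsr2) and each axis starts at 0. Car1 has the library pattern of Vwf, the neutrophil sum is high in EV mouse 5 and sgZrsr2 mouse 3 but not in sgZrsr2 mouse 5, and the endothelial sum is lowest in the 3 libraries with the most Vwf. That sum is mostly Egfl7 and Robo4, while Kdr, Plvap and Stab2 of the same list are highest in those 3 libraries.

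The libraries fell into separate sets for most of these genes, and sgZrsr2 mice 1 and 2 were close to each other, so no correlation between the genes is given as a finding. As a measure of likeness, every gene with a mean of at least 5 CPM (10789 genes) was compared with the mean z-score of the 9 tested genes over the 9 libraries. The 10 most alike had a Pearson's r from 0.950 to 0.982, and among them were Dapk1, Ache, Mafg, Ces2g, Optn, Gse1, Zfpm1, Aldh1a1 and St8sia6. In all, 54 genes (0.501%) reached 0.9. Ache, which encodes acetylcholinesterase, was at 1.88 to 4.06 CPM in EV mice 1 to 4, 17.3 CPM in EV mouse 5, 3.29 and 2.40 CPM in sgZrsr2 mice 1 and 2, then 26.8 and 29.4 CPM in mice 3 and 5. Zfpm1, the Gata1 cofactor FOG1, was at 85.1 to 127 CPM in EV mice 1 to 4, 217 CPM in EV mouse 5, 127 and 119 CPM in sgZrsr2 mice 1 and 2, then 296 and 290 CPM in mice 3 and 5. Of the 9 genes themselves, each set against the mean of the other 8, Vwf (r = 0.957) and Itgb3 (r = 0.955) were the most alike. Itga2b (r = 0.567) and Selp (r = -0.523) were the least.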

How the data were processed

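RNA of sorted LSK cells was sequenced as polyadenylated libraries from 5 ng of total RNA, with PCR, per the labels' protocols. The authors deposited expected counts from RSEM for each Ensembl gene, without normalization. The submitters' processing notes name cutadapt 1.11, RSEM 1.2.30 and GRCm38; the aligner, annotation and strandedness are not given in the sources used here. RSEM divides reads between genes, so 9.78% to 13.3% of a library's values had a fraction; all were rounded.

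Genes kept by filterByExpr (at least 10 counts, 15 in total) were tested with edgeR 4.0.16 (TMM factors 0.894 to 1.07, quasi-likelihood test, R 4.3.3), with Benjamini-Hochberg adjustment over 14944 genes. The SE is the size of the log2 fold change over the square root of F. Levels are TMM-scaled CPM of all genes, and log2 CPM used a prior count of 2. Exact permutation tests were two-sided over 126 splits (smallest p 0.0159). The test was checked on simulated counts. Depth limits genes of few counts, and counting limits do not cover the variation between mice.

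The genes and lists were chosen with earlier results of these data known. Named were the 10 genes, Zrsr2, the 2 to 4 members of a list with the highest CPM, markers at 0, and the 10 genes most alike; other list members were named after their values were seen. Results for some genes are not reported here. All listed genes were found, older symbols through GENCODE identifiers. Alternatives were other scaling factors, filters, DESeq2 1.42.0, limma-voom (limma 3.58.1), a block for the mouse number, a robust dispersion estimate, averaging sgZrsr2 mice 1 and 2, and leaving out libraries. Figures were drawn with matplotlib 3.10.9.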

Additional observations from a re-analysis of the deposited data

Results flagged for a closer look

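For the 9 tested genes and Zrsr2, the gap between an extreme library and its nearest neighbour was compared with the whole spread of its group. This was done in EV and in sgZrsr2, and 5 of the 20 comparisons passed Dixon's 95% limit, against about 1 in 20 by chance. Of the 5, 4 were EV mouse 5, which stood above the other EV libraries in Vwf (53.2 CPM against 4.65 to 9.21 CPM), Pf4 (22.0 against 1.78 to 3.43 CPM), Gp5 (17.9 against 1.09 to 4.90 CPM) and Gp1bb (6.02 against 0.663 to 1.60 CPM). These 4 are values of 1 library and not independent of each other. The fifth was Zrsr2, with 62.2 CPM in EV mouse 3 while EV mice 1, 2, 4 and 5 had 50.6 to 51.9 CPM. No value of an sgZrsr2 library passed the limit. In Vwf these libraries split into low values in mice 1 and 2 (11.4 and 6.16 CPM) and high values in mice 3 and 5 (91.1 and 85.3 CPM). A gap beside 1 extreme library cannot be wide in such a split, so this does not show a smaller spread.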

How the results depend on the processing

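The log2 fold changes of the 9 tested genes stayed above 0, and that of Zrsr2 below 0, short of the adjusted threshold, in the 10 alternatives with other scaling, filters, tests or design and in the 9 fits that each left out 1 library. The number of these 9 genes past the threshold was 0 in each of them. The number of all genes past it was 0 except for 16 with the DESeq2 Wald test and 1 with sgZrsr2 mice 1 and 2 averaged; the cause was not tested. Without EV mouse 5 and sgZrsr2 mice 3 and 5, the values of Pf4 (-0.75), Gp1bb (-0.32) and Gp9 (-0.12) changed sign. Among the 10, limma-voom with quality weights gave the lowest value of Pf4 (0.44), Gp5 (0.53), Gp9 (0.06) and Vwf (0.94). The same held for Gp1bb (0.71), Gp1ba (0.52) and Itgb3 (0.35). That test gave the highest value of Selp (0.77) and Itga2b (0.87). Of the 10 genes most alike, 0 were shared when Spearman's rho was used, 3 with values centred within each group and 5 (without sgZrsr2 mouse 5) to 9 when 1 library was left out. The shared order of libraries held for 7 genes with library totals too. Whether the mouse numbers pair the samples was not settled. The deviations of same-numbered libraries correlated at -0.23, -0.09, -0.40 and 0.37 for mice 1, 2, 3 and 5. By the median coefficient of variation these pairs differed by 9.86%, 8.31%, 24.2% and 4.60%, the last being the least of all pairs across genotypes. By the correlation EV mouse 5 was nearest to sgZrsr2 mouse 3. With the mouse number as a replicate block 0 genes passed the threshold, 341 in place of 1024 had an unadjusted p under 0.05, and the log2 fold changes of Vwf, Pf4 and Itga2b were 1.11, 0.61 and 0.80. Depth limits Gp6, which could not be tested, and the low values of Pf4 (22 counts at the least) more than those of Vwf (149 counts).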
